A study of Homo sapiens with 2 samples.

Results

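The genes examined were 44 genes of extracellular matrix breakdown: 22 matrix metalloproteinases (MMPs), 3 tissue inhibitors of metalloproteinases (TIMPs) and 19 ADAMTS genes, whose products are secreted metalloproteinases with thrombospondin motifs. They were chosen by name as members of these families, out of 20037 protein-coding genes on chromosomes in the RefSeq annotation of GRCh38, and all 44 were found there. A gene counted as having a peak when a listed HNRNPK peak overlapped its span, or the 5 kb on either side, by at least 1 bp.

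The peaks came from ChIP-seq, in which DNA bound by a protein is recovered with an antibody and sequenced (the IP) beside sheared DNA that skipped this step (the input). The study had 1 IP library made with an antibody to HNRNPK and 1 input library, both from untreated H1299 cells, a human line of non-small cell lung cancer that the labels call lung adenocarcinoma. There were no replicates, so no value below carries a replicate error, and neighbouring genes and peaks are not replicates. A peak list cannot show marker expression, so the cell type was taken from the label, and the list, whose peak names spell the line with a different initial letter, was taken as that of this IP.

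HNRNPK is a nuclear protein that binds C-rich RNA and single-stranded DNA and takes part in transcription and RNA processing. MMPs are secreted or membrane-bound zinc proteases that are made as inactive precursors, cut collagens, laminins and other matrix proteins, and are held in check by TIMPs, which block their active site. ADAMTS proteases cut proteoglycans, procollagens and some blood and cartilage proteins, and in lung cancer the turnover of matrix by these families is studied for its part in invasion.

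HNRNPK peaks were listed at 18 of the 44 genes, a share of 40.9% (Wilson 95% interval, 27.7% to 55.6%, counting error only), against 38.2% of all protein-coding genes. The share of the families was thus near that of genes at large, and with 20 kb on either side the order turned, at 47.7% against 52.3%. Counted per length, the 44 genes together held 0.967 peaks per 100 kb and all protein-coding genes 1.05, and the median gene had 0 peaks in both sets. The families differed among themselves in the number of genes with a peak, with 6 of 22 MMP genes (27.3%, 13.2% to 48.2%), 0 of 3 TIMP genes and 12 of 19 ADAMTS genes (63.2%, 41.0% to 80.9%). ADAMTS genes are also longer, with a median span of 152.9 kb against 12.9 kb for MMP genes. Per 100 kb the MMP and ADAMTS families were closer, with 0.945 peaks at MMP genes and 1.03 at ADAMTS genes, and the TIMP genes had 0. Without ADAMTS2 the order turned, as the other 18 ADAMTS genes held 0.698. The intervals above count each gene separately, although 9 MMP genes are neighbours in 1 cluster described further on.

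The 18 genes held 43 peaks, of which 40 lay inside a gene and 3 wholly in the 5 kb around it. All 43 were weak in absolute depth, since each rested on 6 to 11 IP fragments, with a median of 8. The same median held for the peaks of all protein-coding genes. The fold enrichment of a peak compares IP coverage with the background around the peak, and its median was 3.61 at the 44 genes and 3.57 at all protein-coding genes. The highest was 5.25 and 11.4, respectively. The false discovery rate (FDR) of the peak caller was under 0.05 for 6 of the 43 peaks (14.0%), against 14.6% of peaks at all protein-coding genes. These 6 peaks fell in 5 genes, MMP24, ADAMTS2, ADAMTS7, ADAMTS13 and ADAMTS15, or 11.4% of the 44, against 9.05% of all protein-coding genes. Of the 43 peaks, 15 (34.9%) stood within 0.01 of the lowest local background in the list, 1.04 after rounding, against 21.7% of peaks at all protein-coding genes.

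**Figure D1:**
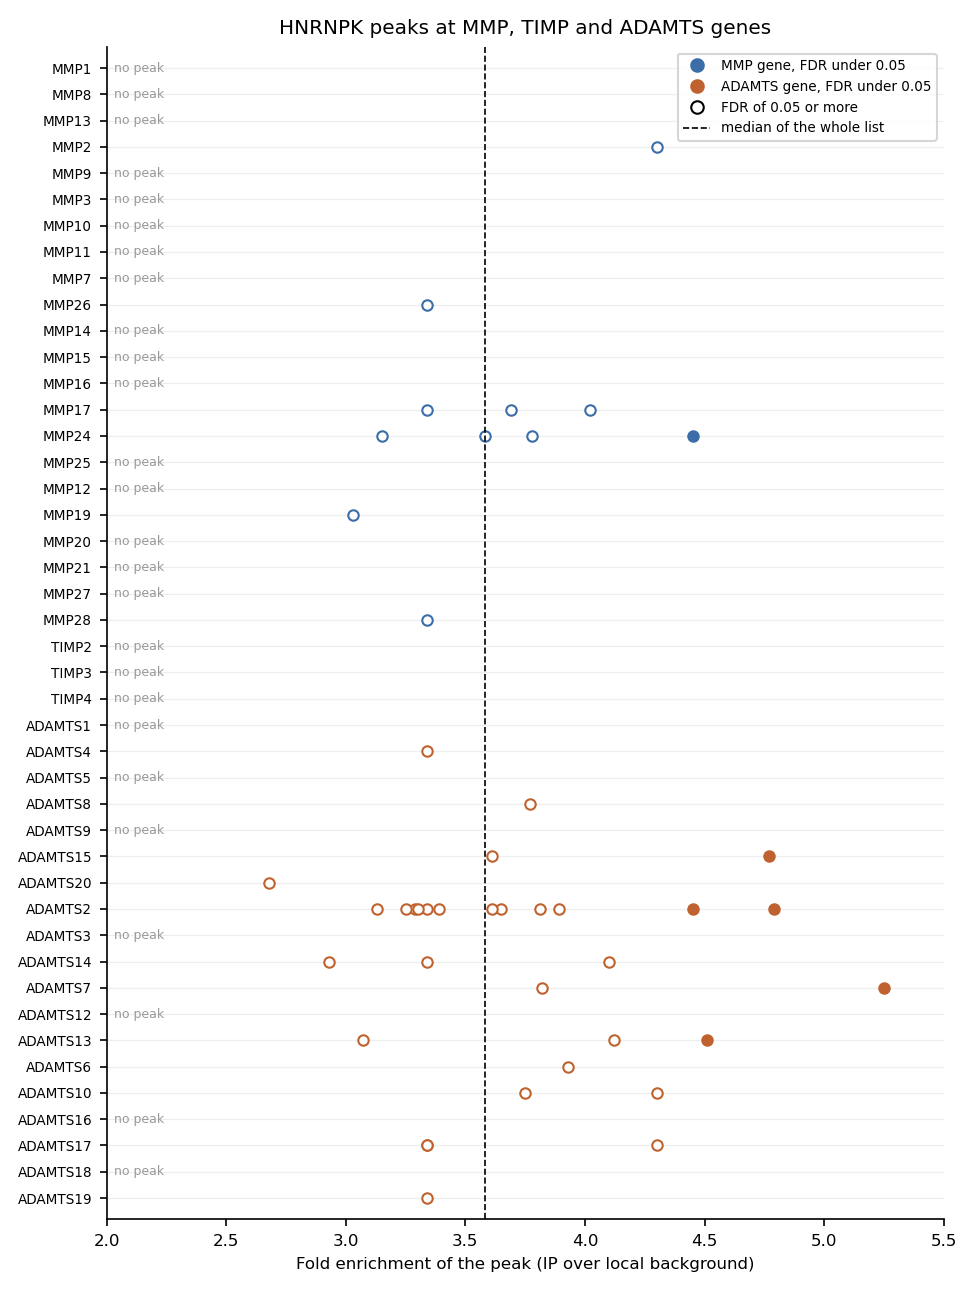
Fold enrichment (IP over local background, horizontal axis) of every HNRNPK peak at each of the 44 genes (vertical axis, ordered by role), 1 point per peak, with filled points for an FDR under 0.05 and a dashed line at the median of the whole list, 3.58. Filled points appear in 5 genes, 26 genes have no peak, and 2 of the ADAMTS17 points lie on top of each other.

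Because long genes offer more room for peaks, the share was also taken by length. Of the 17 members under 20 kb long, 2 had a peak (11.8%, 3.29% to 34.3%), against 30.0% of protein-coding genes of that length. Of the 15 members from 20 to 100 kb long, 10 had one (66.7%, 41.7% to 84.8%), against 39.5%. Of the 12 over 100 kb long, 6 had one (50.0%, 25.4% to 74.6%), against 57.3%. The members therefore lay below the genes at large among short genes, above them at middle lengths and close to them among long ones. No test was run on these classes, and the 17 short members include 8 neighbours from 1 MMP cluster described further on.

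**Figure D2:**
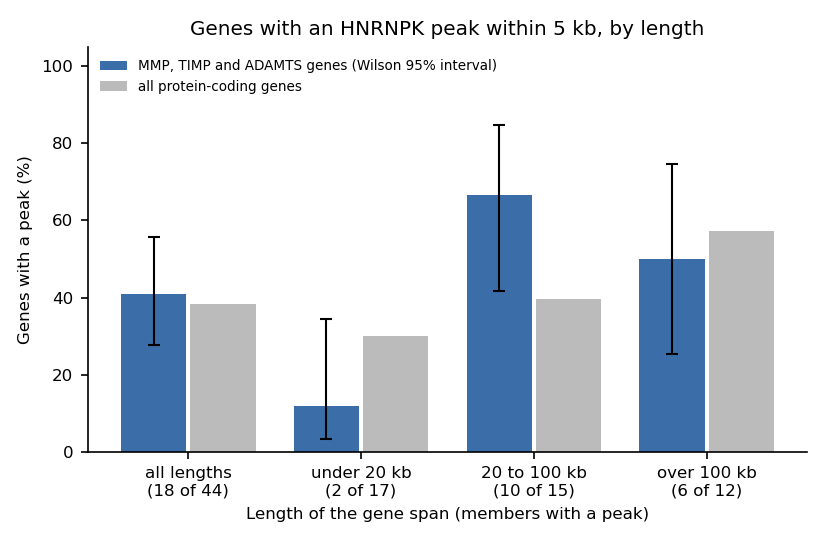
Percentage of genes with an HNRNPK peak in the span or the 5 kb around it (vertical axis) for all lengths and in 3 length classes (horizontal axis), for the MMP, TIMP and ADAMTS genes (blue, with Wilson 95% intervals) and for all protein-coding genes (grey). Members are at 11.8%, 66.7% and 50.0% from the shortest to the longest class.

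MMP2 encodes a gelatinase, a protease of denatured collagen and of the collagen of basement membranes, and spans 27.9 kb at chr16:55478830-55506691. It had 1 peak, of 287 bp at chr16:55488531-55488817, with its midpoint 9.84 kb inside the lower-coordinate end of the gene. The strand and exons of MMP2 were not in the tables used, so the peak can be placed within the gene but in no exon or intron. Its fold enrichment was 4.30, from 8 IP fragments on a local background of 1.05 (on the scale of IP coverage), with a p-value of 1.41e-05 and an FDR of 0.101 from the peak caller. In the whole list 12.2% of peaks had a higher fold enrichment, and 920 peaks, that of MMP2 included, had exactly this value to the digits deposited. On the lowest background a whole number of fragments gives few possible ratios, and 1 fragment fewer gave 3.82, as at a peak of ADAMTS7. The peak stood alone, with a gap of 436.7 kb to the next one on the lower side and of 273.4 kb on the higher side. The median gap between peaks of chromosome 16 was 23.9 kb, and 24 and 59 of its 1101 gaps were at least as long as these.

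Set against its family, MMP2 stood in the upper part both in the fold enrichment of its peak and in number of peaks. Among the 11 peaks of the MMP genes, 1 had a higher fold enrichment, a peak of MMP24 at 4.45. MMP24 with 4 peaks and MMP17 with 3 had more peaks than MMP2, MMP19, MMP26 and MMP28 also had 1, and the other 16 MMP genes had 0. Counted per length, MMP17, MMP24 and MMP19 had more peaks per 100 kb (8.99, 6.63 and 5.71) than MMP2 (2.64). Over all 43 peaks, 6 had a higher fold enrichment than that of MMP2, and 2 had the same value, 1 at ADAMTS10 and 1 at ADAMTS17. With its FDR of 0.101, the peak of MMP2 was not among the 6 with an FDR under 0.05.

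MMP9, which encodes the other gelatinase, had no peak within 5 kb. It was the gene nearest to that limit from outside, with a peak 5.60 kb beyond its higher end at a fold enrichment of 3.25, 9 fragments and an FDR of 0.339. MMP11, a protease that is cut to its active form before it leaves the cell, followed with a peak at 8.70 kb, and MMP25 at 9.54 kb. MMP19, with its peak 1.29 kb from the gene, and ADAMTS4, with its peak at 2.21 kb, had peaks only in the 5 kb around the gene. The 2 gelatinase genes also lay in unlike surroundings, as the 500 kb on either side held 0.20 peaks per 100 kb at MMP2 and 2.40 at MMP9.

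The membrane-type MMPs are anchored to the cell surface, where MMP14 cuts collagen and activates the precursor of MMP2. Of these 6 genes, MMP24 and MMP17 had peaks (33.3%, 9.68% to 70.0%), near the 38.2% of all protein-coding genes. MMP14, MMP15, MMP16 and MMP25 had none. MMP24, whose product is known mainly from the nervous system, had 4 peaks at fold enrichments from 3.15 to 4.45. The highest, at chr20:35270204-35270436, rested on 11 fragments with an FDR of 0.0203 and lay 43.6 kb downstream of the 5′ end of the 50.3 kb gene. Each MMP24 peak also lay in another protein-coding gene, 3 in the read-through gene MMP24-AS1-EDEM2 and 1, past the 3′ end, in EIF6, so they cannot be given to MMP24 alone. MMP17, a protease held at the membrane by a lipid anchor, had 3 peaks from 4.93 to 7.5 kb inside its lower end, at fold enrichments of 3.69, 4.02 and 3.34, and no FDR under 0.05. At 8.99 peaks per 100 kb it was the densest of the 44 genes, and 5.03% of all protein-coding genes were as dense or denser. Its peaks at fold enrichments of 3.69 and 4.02 lay within 1 kb of each other, and the rank rests on counting them separately. MMP14 had its nearest peak 52.0 kb away, nearer than those of MMP15 and MMP16 at 81.4 and 195.6 kb. The surroundings of MMP14 held 0.20 peaks per 100 kb.

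The remaining MMP peaks were single and weak. MMP26, a small protease of the matrilysin type, has a long span of 287.6 kb in the annotation and held 1 peak of 6 fragments at a fold enrichment of 3.34. MMP28, or epilysin, a protease made by epithelia such as that of skin, had 1 peak with the same fold enrichment and number of fragments. MMP19, which cuts basement membrane proteins, had 1 peak beyond its higher end, with the lowest fold enrichment of the MMP peaks, 3.03, and an FDR of 0.716. MMP21, known for its part in left-right body patterning, had none, and its nearest peak was 90.0 kb away.

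The other 9 MMP genes lie next to each other in a cluster of 435.2 kb at chr11:102520508-102955732, in band 11q22, and had 0 peaks between them (0 of 9, beside 38.2% of all protein-coding genes and 30.0% of those under 20 kb). As neighbours in 1 locus they are not 9 separate observations, so no interval is given, although intervals above for larger sets count them separately. They are the collagenases MMP1, MMP8 and MMP13, which open the collagen triple helix, the stromelysins MMP3 and MMP10, which cut many matrix proteins and activate other MMPs, and the matrilysin MMP7. The others are MMP12, the elastase of macrophages, MMP20, which processes the proteins of enamel, and MMP27, whose substrates are less well known. All 3 collagenases and both stromelysins were therefore without a peak. Inside the cluster 1 peak was listed between genes, at chr11:102906409-102906641, with a fold enrichment of 3.73, 7 fragments and an FDR of 0.290. It lay 31.4 kb from MMP12 and 36.4 kb from MMP13. The next peaks were 32.8 kb below MMP7, at the lower edge of the cluster, and 340.2 kb above MMP13, at its higher edge. The 2 stretches without a peak on either side of the inner peak were 418.7 and 389.3 kb long, against a median gap of 47.4 kb between peaks of chromosome 11. Stretches as long were not rare there, since 67 of the 985 gaps on that chromosome were at least as long as the former and 78 as the latter. Leaving the cluster aside, 6 of the 13 MMP genes elsewhere had a peak (46.2%, 23.2% to 70.9%), with 1.17 peaks per 100 kb, near the 38.2% and 1.05 of all protein-coding genes.

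The promoters of the cluster can be read for 5 of its genes, and they differed in base composition from those of the ADAMTS genes. A table of RefSeq promoters (GRCh38.p14) gave 250 bases upstream and 50 downstream of the start of 25 of the 44 genes. Over these 300 bases the 5 cluster genes had a median GC content of 36.3% (33.3% to 44.3%), the 12 ADAMTS genes 71.7% (52.0% to 80.3%) and all 15843 promoters of coding genes 62.7%. The 8 other MMP and TIMP genes had 68.3% (39.0% to 80.0%). Outside the cluster, GC content did not separate genes with a peak from those without. Genes with a peak ran from MMP26 at 39.0% to ADAMTS2 at 80.3%, the highest of the 25. Those without ran from MMP14 at 55.0% to MMP15 at 75.3%. The upstream bases of MMP7 (minus strand, chr11:102530748-102530997), in a cluster without gene peaks, and of ADAMTS2 (minus strand, chr5:179345462-179345711), the member with the most peaks, show the contrast between the cluster and the ADAMTS genes. Capitals mark matches to GCGAGG, to CTAATG or to CCCTCC on either strand, and MMP7 has none.
MMP7: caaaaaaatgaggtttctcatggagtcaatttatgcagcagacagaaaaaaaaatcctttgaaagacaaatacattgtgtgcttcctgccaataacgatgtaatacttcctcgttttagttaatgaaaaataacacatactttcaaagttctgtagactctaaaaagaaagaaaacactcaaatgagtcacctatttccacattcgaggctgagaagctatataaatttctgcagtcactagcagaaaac
ADAMTS2: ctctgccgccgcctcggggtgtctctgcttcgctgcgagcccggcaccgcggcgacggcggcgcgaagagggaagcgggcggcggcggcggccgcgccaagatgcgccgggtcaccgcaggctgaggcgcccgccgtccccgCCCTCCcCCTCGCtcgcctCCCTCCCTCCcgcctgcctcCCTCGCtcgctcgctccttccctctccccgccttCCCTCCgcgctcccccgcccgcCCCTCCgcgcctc
Neither of these windows lay under a peak, so the letters describe the genes and not the DNA that was pulled down.

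None of the 3 inhibitor genes examined, TIMP2, TIMP3 and TIMP4, had a peak (up to 56.1%), against 38.2% of all protein-coding genes. TIMP1 was not among the genes examined. TIMP2, which also bridges the MMP2 precursor to MMP14 at the cell surface, was the nearest to one, at 24.0 kb, with a fold enrichment of 2.52 and an FDR of 1.00. Its surroundings were rich in peaks, at 2.80 per 100 kb over the 500 kb on either side. TIMP3, which binds to the matrix and inhibits ADAMTS proteases as well as MMPs, had its nearest peak 831.0 kb away. It lies inside SYN3, and TIMP4 inside SYN2, genes of synaptic vesicle proteins. These hosts, 550.6 and 187.6 kb long, had 0 peaks each as well. The nearest peak of TIMP4 was 271.7 kb away, with a fold enrichment of 4.66 and an FDR of 0.0281.

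The ADAMTS genes held 32 of the 43 peaks, and 12 of these lay in ADAMTS2. ADAMTS2, ADAMTS3 and ADAMTS14 encode the proteases that remove the amino-terminal propeptide of procollagens, a step before collagen fibrils form. The 12 peaks of ADAMTS2 were spread over its 234.6 kb, from 6.67 to 194.4 kb downstream of the 5′ end, and all were inside the gene. Their fold enrichments ran from 3.13 to 4.79. An FDR under 0.05 was given to 2 of them, which lay close together near the middle of the gene. The first, at chr5:179236574-179236808, had a fold enrichment of 4.79, 11 fragments and an FDR of 0.00805. The second, at chr5:179239038-179239270, had 4.45, 11 fragments and 0.0203. Only 53 of the 20037 protein-coding genes (0.265%) had as many peaks as ADAMTS2 or more. Counted per length it stood out less, with 4.91 peaks per 100 kb in the gene and 2.30 in the 500 kb on either side, and 1.58% of protein-coding genes over 100 kb long were as dense or denser.

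The other procollagen genes differed from each other. ADAMTS14 had 3 peaks in 89.9 kb, or 3.0 per 100 kb in surroundings of 2.10, at fold enrichments of 4.10, 3.34 and 2.93. They lay 6.0, 40.9 and 89.8 kb downstream of its 5′ end, the last of them only 0.181 kb short of the 3′ end. ADAMTS3 had none, and its nearest peak was 764.5 kb away. Without ADAMTS2, the other 18 ADAMTS genes held 20 peaks, or 0.698 per 100 kb, and the 43 other members 0.738, both below the 1.05 of all protein-coding genes. The share of ADAMTS genes with a peak hardly changed, at 11 of 18 (61.1%, 38.6% to 79.7%), against 38.2% of all protein-coding genes. The median span of these 18 genes was 121.4 kb, and 57.3% of protein-coding genes over 100 kb long had a peak.

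**Figure D3:**
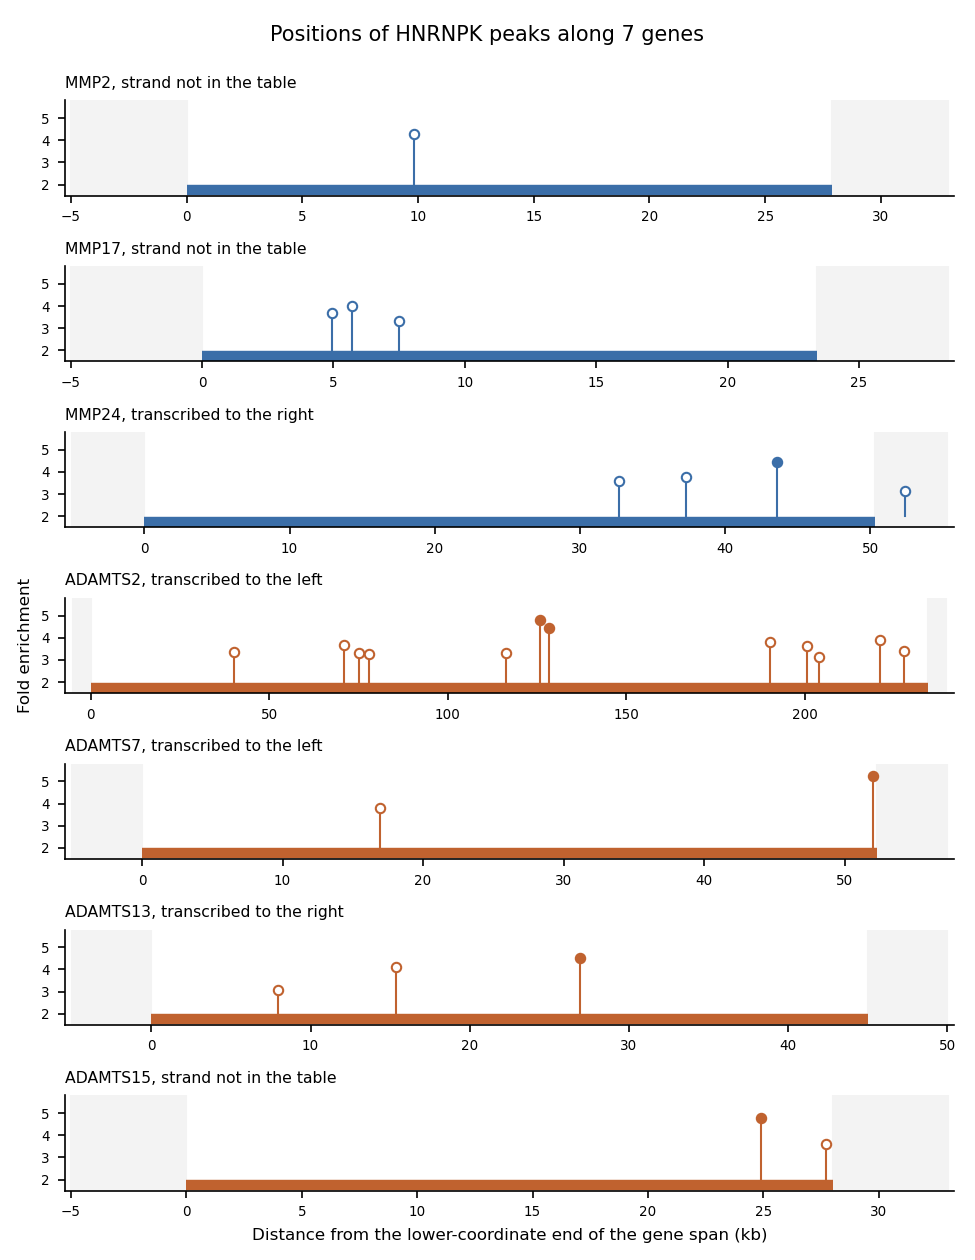
HNRNPK peaks along MMP2, MMP17, MMP24, ADAMTS2, ADAMTS7, ADAMTS13 and ADAMTS15, placed by their midpoints in kb from the lower-coordinate end of the gene (horizontal axis, a scale for each gene) with their fold enrichment (vertical axis), filled for an FDR under 0.05. Bars at the foot of each panel are the gene spans and grey bands the 5 kb around them, and the highest point of ADAMTS7 stands at the right end of its bar, where that gene begins.

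ADAMTS7 and ADAMTS12 encode proteases of cartilage oligomeric matrix protein (COMP). ADAMTS7 had the peak with the highest fold enrichment and the lowest FDR of all 43, at chr15:78811087-78811421, with a fold enrichment of 5.25, 10 fragments on a background of 1.05 and an FDR of 0.00457. In the whole list 1.77% of peaks were higher. Its midpoint lay 0.210 kb downstream of the 5′ end of the gene, closer to the 5′ end of the annotated span than any other peak of a member with a known strand. A further ADAMTS7 peak, at 3.82 with an FDR of 0.290, was 35.3 kb downstream of the start. ADAMTS12, at 368.5 kb one of the longest members, had none, and the peaks on either side of it were 95 and 249.9 kb away.

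ADAMTS13 encodes the blood protease that trims von Willebrand factor (VWF). It had 3 peaks in 45.0 kb, or 5.45 per 100 kb, at fold enrichments of 3.07, 4.12 and 4.51. The last of these, at chr9:133441050-133441324, had 9 fragments and an FDR of 0.0409. The first, at chr9:133422148-133422448, had 8 fragments and an FDR of 0.622, but it covered 269 of the 300 bases of the promoter window. The start used by that table lies 8030 bp inside the annotated span, so the window belongs to an inner start of the gene.

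Promoter windows under a peak were found for ADAMTS7 and ADAMTS13 alone, 2 of the 25 that could be looked up, against 1.85% of the 15843 windows of coding genes. With so few windows that share has little precision. The peak of ADAMTS7 reached into its window from the gene side by 7 bases, all of them downstream of the start, and that of ADAMTS13 covered 219 of the 250 upstream bases. Both upstream stretches are shown because they are the ones nearest to a listed peak. For ADAMTS7 (minus strand, chr15:78811465-78811714) capitals mark motif matches, and for ADAMTS13 (plus strand, chr9:133422117-133422366), which has no match, they mark the bases under the peak.
ADAMTS7: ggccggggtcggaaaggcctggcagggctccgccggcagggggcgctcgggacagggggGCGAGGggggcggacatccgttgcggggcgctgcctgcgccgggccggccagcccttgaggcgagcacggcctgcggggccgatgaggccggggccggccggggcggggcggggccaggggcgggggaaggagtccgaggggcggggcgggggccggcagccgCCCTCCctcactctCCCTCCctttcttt
ADAMTS13: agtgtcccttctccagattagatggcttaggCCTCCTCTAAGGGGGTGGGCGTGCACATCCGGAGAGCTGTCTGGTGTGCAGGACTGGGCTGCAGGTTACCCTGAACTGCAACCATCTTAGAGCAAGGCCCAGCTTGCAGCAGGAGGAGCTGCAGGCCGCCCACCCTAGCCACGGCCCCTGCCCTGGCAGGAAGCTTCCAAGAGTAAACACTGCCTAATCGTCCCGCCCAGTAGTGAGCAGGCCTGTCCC

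The letters searched were GCGAGG and CTAATG, which the study named as HNRNPK motifs, and CCCTCC, a C-rich run of the kind that HNRNPK binds. Both strands were read, and matches could overlap. GCGAGG was present in 6 of the 25 windows (24.0%, 11.5% to 43.4%), against 28.1% of all coding promoters. The 6 were those of MMP24, TIMP4, ADAMTS2, ADAMTS7, ADAMTS12 and ADAMTS17. CTAATG was in 0 of 25 (up to 13.3%), against 5.15%. CCCTCC was in 17 of 25 (68.0%, 48.4% to 82.8%), against 50.7%. By set, CCCTCC was in 10 of the 12 ADAMTS windows, in 6 of the 8 windows of MMP genes elsewhere and TIMP genes, and in 1 of the 5 of the MMP cluster, that of MMP20. All 3 sets of letters describe sequence only, and the GC content differed between the same genes.

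The proteoglycan-cleaving genes ADAMTS1, ADAMTS4, ADAMTS5, ADAMTS8, ADAMTS9, ADAMTS15 and ADAMTS20 encode proteases that cut aggrecan, versican or both. Of these 7 genes, 4 had a peak (57.1%, 25.0% to 84.2%), against 38.2% of all protein-coding genes. That interval counts each gene separately, although ADAMTS8 and ADAMTS15 are neighbours, as are ADAMTS1 and ADAMTS5. ADAMTS15 had 2, and the stronger, at chr11:130473371-130473671, had a fold enrichment of 4.77 from 9 fragments and an FDR of 0.0243. It lay 3.12 kb inside the higher end of the gene, and the weaker, at 3.61, 0.291 kb inside that end. ADAMTS8, its neighbour on chromosome 11, had 1 peak at 3.77 with an FDR of 0.290. ADAMTS20, linked to pigment cell development, had 1 at 2.68, the lowest fold enrichment of the 43, from 10 fragments on a local background of 3.0. The peak of ADAMTS4, at 3.34, lay wholly outside the gene. The main aggrecan-cleaving partner of ADAMTS4 in cartilage, ADAMTS5, had none. ADAMTS5 and ADAMTS1 are neighbours on chromosome 21 and shared their nearest peak, 154.6 and 72.4 kb away. ADAMTS9 was the most isolated of the 44 genes, with its nearest peak 1294.8 kb away and none in the 500 kb on either side.

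ADAMTS6 and ADAMTS10 encode proteases of fibrillin microfibrils, and both had peaks. ADAMTS10 had 2, at fold enrichments of 3.75 and 4.30 with FDRs of 0.122 and 0.101, in a gene of 30.5 kb. ADAMTS6 had 1 at 3.93 in 333.2 kb. Among the remaining genes, ADAMTS17, mutated in a syndrome of short stature and eye defects, had 3 peaks in 370.5 kb, at 4.30, 3.34 and 3.34. ADAMTS19, linked to heart valve disease, had 1 at 3.34. ADAMTS16 and ADAMTS18 had none, and their nearest peaks were 27.3 and 44 kb away. None of the peaks in these 6 genes had an FDR under 0.05.

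In number, 6 of the 44 genes had 3 or more peaks (13.6%), against 8.56% of all protein-coding genes. They were MMP17, MMP24, ADAMTS2, ADAMTS13, ADAMTS14 and ADAMTS17. A further 9 of the 44 genes had 1 peak, beside 4216 of the 20037 protein-coding genes. Peaks at the members also went with peaks in their surroundings. The 18 genes with a peak had a median of 1.15 peaks per 100 kb in the 500 kb on either side, and the 26 without one had 0.400. The same was true of protein-coding genes at large, at 1.5 and 0.60. In 16 of the 18 the density at the gene exceeded that of the surroundings (88.9%), against 79.4% of all protein-coding genes with a peak, and ADAMTS6 and ADAMTS20 were the exceptions. A gene with a peak has a raised density by that fact alone, so this share describes the genes and tests nothing. MMP9, MMP11, MMP15, MMP25 and TIMP2 were in the opposite position, with no peak of their own in surroundings of 1.80 to 2.90 peaks per 100 kb.

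**Figure D4:**
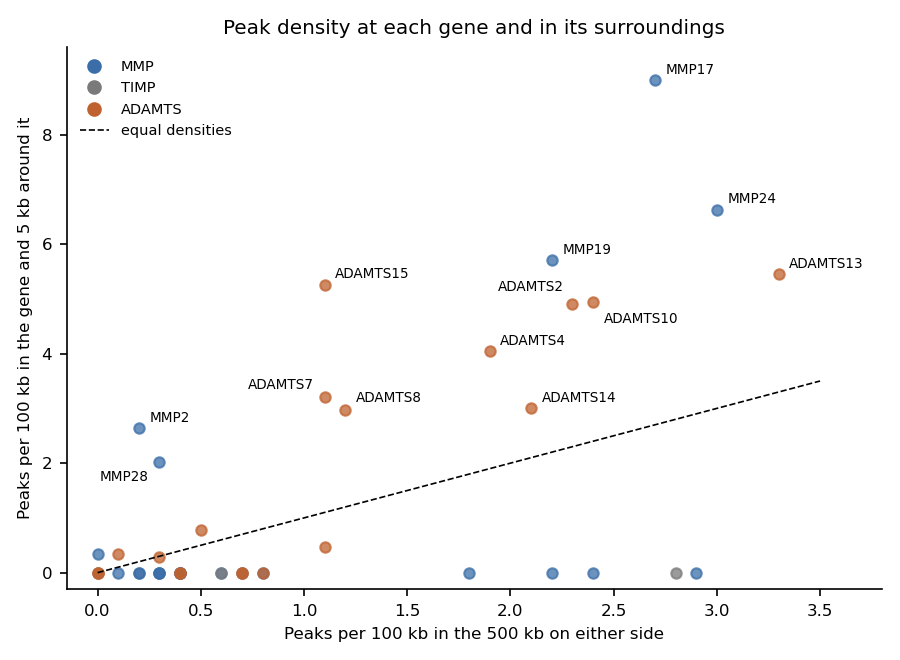
HNRNPK peaks per 100 kb in each gene and the 5 kb around it (vertical axis) against peaks per 100 kb in the 500 kb on either side (horizontal axis), 1 point per gene, coloured by family, with a dashed line at equal densities. MMP17 is the highest point at 8.99, MMP2 stands at 2.64 over surroundings of 0.20, and genes without a peak lie along the bottom.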

How the data were processed

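HNRNPK ChIP-seq of untreated H1299 cells comprised 1 IP and 1 input library. Per the submitters' processing notes, Trimmomatic 0.36, STAR 2.5.3a, MACS2, bedtools, HOMER and GRCh38 were used; other versions and the thresholds were not given in the sources used here. The fold enrichment deposited by the authors is a ratio, IP pileup over the background around the peak. Each p-value and FDR was deposited as a plain value, not as a logarithm, and was used unchanged. The deposited pileup is a signal, the scaled IP coverage. It moved in steps of 0.9735, read as 1 fragment each, so peaks held 5 to 248 fragments and a change of 1 fragment is a large share of a typical peak of 8. Local background was recovered as pileup plus 1, divided by fold enrichment, minus 1. Library sizes were not used here.

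The list held 22351 peaks. Its peak numbers ran to 22444 with 93 absent, and 0 of the absent numbers fell between the peaks that flank each member. Spans came from RefSeq GRCh38.p14 and promoters from its promoter table, which matched 25 of the 44 members. It did not hold MMP1, MMP2, MMP3, MMP9, MMP12, MMP13, MMP16, MMP17, MMP19, MMP25, MMP28, TIMP2, ADAMTS1, ADAMTS4, ADAMTS5, ADAMTS8, ADAMTS9, ADAMTS15 or ADAMTS16. Density was the number of peaks over the span plus 5 kb on either side, and over 500 kb beyond that for surroundings, where peaks were placed by midpoint. Every member was named, with values for those with a peak, and the 3 genes with the highest fold enrichment in each of 2 lists of related genes. Neighbouring genes outside the lists were named with their values known. The members and lists were chosen with earlier results of these data known. No p-value was computed, as 1 IP and 1 input allow no test over samples. Shares carry Wilson 95% intervals for counting error. Overlap counting was tested on simulated data. Alternatives were other windows, stricter FDR or fold enrichment, midpoints, merged peaks, peaks of other genes left out and motifs on 1 strand; leaving out ADAMTS2 and counting the MMP cluster as 1 locus were chosen after seeing the data. Computations used Python 3.11.15, numpy 2.4.6, scipy 1.17.1, pandas 2.3.3 and matplotlib 3.10.9.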

Additional observations from a re-analysis of the deposited data

How the results depend on the processing

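Under alternative settings 8 values moved beyond their interval or beyond 1.5 times the main count. With peaks kept only at an FDR under 0.05, members with a peak went from 18 to 5, peaks from 43 to 6 and peaks at MMP2 from 1 to 0. At a fold enrichment of at least 5 these became 1, 1 and 0, with 2.27% of members and 2.20% of all protein-coding genes having such a peak. By construction, stricter thresholds leave fewer peaks. Members with a peak at an FDR under 0.05 went from 5 to 2 at an FDR under 0.01 (4.55% against 3.71%). CCCTCC fell from 68.0% to 48.0% of promoters on the forward strand alone, where all coding promoters gave 29.8%. Windows of 0, 1 and 20 kb gave 16, 16 and 21 members with a peak. Against all protein-coding genes the order turned with the window, since members were higher without one (36.4% against 29.7%) and lower at 20 kb (47.7% against 52.3%), and the cause was not tested. Leaving out peaks shared with another protein-coding gene gave 16 members and 38 peaks, and leaving out ADAMTS2 gave 31 peaks. Counting the MMP cluster, where 0 genes had a peak, as 1 locus could not change the count of 18. It leaves fewer units, so the share of 40.9% would be higher by construction. Medians and motif shares already at 0 could not fall. With 1 IP and 1 input of unknown depth, and 6 to 11 fragments per peak, a gene without a listed peak had none detectable at this depth, which does not show absence of binding.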

Other observations

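Genes related to the same biology but outside the MMP, TIMP and ADAMTS families were counted in the same way. Of 38 other matrix proteases and their regulators, such as ADAM proteases, plasminogen activators and cathepsins, 16 had an HNRNPK peak (42.1%, Wilson 95% interval 27.9% to 57.8%), and 4 had one with an FDR under 0.05 (10.5%, against 9.05% of all protein-coding genes). The highest fold enrichments were at ADAM33, a protease gene linked to asthma (5.25, FDR 0.00457), at BSG, whose product induces MMPs in neighbouring cells (4.88, FDR 0.00630), and at ADAM19 (4.80, FDR 0.0135). Of 38 genes of matrix proteins that these families cut or meet, 22 had a peak (57.9%, 42.2% to 72.1%), and 6 had one with an FDR under 0.05 (15.8%, against the same 9.05%). Their highest fold enrichments were at NCAN, which encodes the brain proteoglycan neurocan (5.45, 12 fragments, FDR 0.000736), at COL7A1, the collagen of anchoring fibrils (5.25, FDR 0.00457), and at BCAN, another brain proteoglycan (4.77, FDR 0.0243). These highest peaks lay inside the gene for ADAM33 and COL7A1. For BSG, ADAM19, NCAN and BCAN they lay wholly in the 5 kb around it.

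The shares with any peak stand beside 38.2% of all protein-coding genes, but the listed genes are longer. Their median spans were 45.2 kb for the proteases and regulators and 74.0 kb for the matrix proteins, against 24.1 kb for all protein-coding genes. Per length, the proteases and regulators held 0.819 peaks per 100 kb and the matrix proteins 1.57, against 1.05. VWF, the substrate of ADAMTS13, had 8 peaks, COMP, the substrate of ADAMTS7, had 1 of 5 fragments (2.71, FDR 1.00), and the ADAMTS substrates ACAN and VCAN, which encode aggrecan and versican, had 0. VWF, COMP, ACAN and VCAN were singled out after their values were seen.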
